A study of Mus musculus with 6 samples.

Results

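Complement-high tumor macrophages are described here in 6 mouse rhabdoid tumors profiled by single-cell RNA sequencing. A cell was counted as a member when its unique molecular identifiers (UMIs, each 1 captured transcript molecule) for *C1qa*, *C1qb* and *C1qc* summed to at least 20 per 10,000 with at least 2 of the 3 genes detected. It also had to hold no UMI of the T cell receptor complex genes *Cd3d*, *Cd3e* and *Cd3g* and fewer than 2 of the osteoclast fusion and acidification genes *Atp6v0d2*, *Ocstamp* and *Dcstamp*. After cells with under 200 detected genes or over 25% mitochondrial UMIs were set aside, 22163 cells remained, of which 5677 (25.6%) were members. The C1q, Cd3 and osteoclast gene values chose the cells, so they are given as a description and support nothing.

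C1q is the recognition molecule of the classical complement pathway, assembled from A, B and C chains that are encoded by *C1qa*, *C1qb* and *C1qc*. It binds antibody complexes, dying cells and other surfaces, and it engages the proteases C1r and C1s to cleave the next components of the cascade. Unlike most complement proteins, which come from the liver, C1q is made mainly by macrophages, microglia and some dendritic cells, and it is a common mark of the tissue-adapted macrophages in tumors.

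Tumors arose in Smarcb1 fl/fl mice in which this chromatin remodelling subunit was inactivated by a single tamoxifen dose of 50 mg/kg given to the pregnant mother at E6.5. The 3 MYC spinal tumors came from Rosa26-cre mice, in which the recombinase is driven from a ubiquitous promoter, and are called spinal 1 (19 weeks), spinal 2 (26 weeks) and spinal 3 (17 weeks). The 3 extracranial tumors of the MYC subgroup (eRT) were eRT 1 (Rosa26-cre, 17 weeks, gland), eRT 2 (Sox2-cre, 29 weeks, jaw) and eRT 3 (Sox2-cre, 22 weeks, shoulder). Sox2-cre acts in the epiblast lineage, so the anatomical site and the Cre line were partly joined and cannot be told apart. All tumors shared the Smarcb1 deletion and the tamoxifen, no tumor-free tissue is analysed here, and each tumor is 1 animal.

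The members were spread unevenly: 127 in spinal 1, 13 in spinal 2, 1446 in spinal 3, 1003 in eRT 1, 158 in eRT 2 and 2930 in eRT 3. Summed over the members of a tumor, the counts came to 412263 UMIs in spinal 1, 12068 in spinal 2, 3848526 in spinal 3, 4650750 in eRT 1, 326701 in eRT 2 and 6992823 in eRT 3. Levels below are CPM, the UMIs of a gene summed over the members of a tumor and scaled to the same total in every tumor, so that 1 UMI was worth 82.9 CPM in spinal 2 and between 0.143 and 3.06 CPM in the other tumors. The limit that a count of 0 allows, set at 3 UMIs, was 249 CPM in spinal 2 and between 0.429 and 9.18 CPM elsewhere. Values of spinal 2 are thus coarse, and its members also had the lowest median depth, 1017 UMIs per cell against 1711 in eRT 2 and up to 4249 in eRT 1. *Smarcb1* was 42.9 to 82.9 CPM in the members, the highest value being 1 UMI in spinal 2. It was above the kept cells outside both gates in 6 of 6 tumors. The values were 58.2 against 51.9 CPM in spinal 1 and 49.8 against 12.6 in eRT 3. The paper used *Smarcb1* expression to tell Smarcb1-negative tumor cells from stroma, and whether the members carried the deletion was not tested. Intervals and limits given here cover counting error only, and the p-values measure the spread between these tumors.

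The label was checked against its remaining markers. *Apoe*, which encodes the lipid carrier apolipoprotein E, was 78743 CPM in spinal 1, 9695 in spinal 2, 3952 in spinal 3, 9241 in eRT 1, 23970 in eRT 2 and 37180 in eRT 3. *Csf1r*, the receptor for the growth factor that macrophages depend on, was 720 CPM in spinal 1, 663 in spinal 2, 238 in spinal 3, 372 in eRT 1, 367 in eRT 2 and 737 in eRT 3. *Adgre1*, which encodes the F4/80 antigen, was 182 CPM in spinal 1, 166 in spinal 2, 45.5 in spinal 3, 71.8 in eRT 1, 168 in eRT 2 and 114 in eRT 3. These 3 markers were present in the members of every tumor, although in spinal 2 *Csf1r* rested on 8 UMIs and *Adgre1* on 2. *Mrc1*, the mannose receptor of tissue macrophages, was less even, at 14.6 CPM in spinal 1, 331 in spinal 2 (4 UMIs), 18.5 in spinal 3, 12.5 in eRT 1, 251 in eRT 2 and 97.5 in eRT 3. The members therefore carried the macrophage markers of the label, with *Mrc1* low in spinal 1, spinal 3 and eRT 1, but spinal 2 was less certain. Its members held 0 UMIs of *Cd68* and *Spi1*, other genes of macrophage identity, which allows up to 249 CPM. At least 2 neutrophil genes were found in 11 of its 13 members. At the gate's edge, the 122 members with 20 to 25 C1q UMIs per 10,000 had 206 CPM of *Csf1r* and 3049 of *Apoe*, and the 111 otherwise eligible cells with 15 to 20 had 243 and 1926.

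The 3 C1q genes lie side by side on the minus strand of chromosome 4, in the order *C1qb*, *C1qc*, *C1qa* over 18.7 kb. The windows around the RefSeq gene starts of *C1qb* and *C1qc* (GRCm38.p6, 250 bases before and 50 after the start, minus strand, 5′ to 3′) are shown because these genes define the cells. All 3 genes held a UMI in 5496 of the 5677 members (96.8%), and in 7 of the 13 members of spinal 2. The gate required at least 2 of the 3 genes, so their joint detection was partly set by it. The capitals mark ACTTCCT, the reverse complement of AGGAAGT, a word of the type bound by ETS factors such as the macrophage regulator PU.1. The *C1qb* window spans chr4:136886151-136886450, with the match starting 53 bases before the gene start, and the *C1qc* window spans chr4:136892865-136893164, with the match starting 195 bases before it. These distances are from the starts on which the windows were built. The gene coordinates behind the 18.7 kb give other starts, 136886187 for *C1qb* and 136893065 for *C1qc*.
C1qb: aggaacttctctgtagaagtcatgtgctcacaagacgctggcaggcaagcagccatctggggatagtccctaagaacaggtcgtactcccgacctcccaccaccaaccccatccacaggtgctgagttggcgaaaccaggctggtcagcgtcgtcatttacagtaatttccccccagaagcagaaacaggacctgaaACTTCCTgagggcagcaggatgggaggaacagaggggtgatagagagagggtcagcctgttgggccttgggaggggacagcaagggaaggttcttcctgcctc
C1qc: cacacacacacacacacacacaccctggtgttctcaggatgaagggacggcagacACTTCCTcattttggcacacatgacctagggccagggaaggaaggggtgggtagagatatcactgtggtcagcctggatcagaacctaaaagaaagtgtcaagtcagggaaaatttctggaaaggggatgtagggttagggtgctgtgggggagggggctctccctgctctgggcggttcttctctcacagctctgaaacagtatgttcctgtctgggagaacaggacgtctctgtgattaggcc
Searched on both strands, AGGAAGT occurs in 9.35% of the 32851 windows of this length, so the matches are a description and not binding sites. The *C1qa* window was not looked at.

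The members differed in how much C1q they carried and in the balance of its chains. The median C1q level was 288 UMIs per 10,000 in spinal 1, 50.3 in spinal 2, 82.8 in spinal 3, 182 in eRT 1, 114 in eRT 2 and 149 in eRT 3. Most members thus lay well above the gate, with those of spinal 1 highest and those of spinal 2 lowest. Of the C1q UMIs of the members, *C1qa* gave 44.4% in spinal 1 (exact 95% binomial interval 43.5 to 45.3), 35.3% in spinal 2 (24.1 to 47.8, 68 UMIs), 44.0% in spinal 3 (43.4 to 44.5), 37.7% in eRT 1 (37.4 to 38.1), 37.4% in eRT 2 (35.9 to 39.0) and 38.2% in eRT 3 (37.9 to 38.5). Spinal 1 and spinal 3 were highest, and the interval of spinal 2 covers every other tumor. In eRT the 3 shares lay within 1 percentage point of each other. These UMIs admitted the cells, so the chain shares are a description with no test.

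The share of cells that were members ranged widely in both groups. Members were 8.65% of kept cells in spinal 1 (exact 95% binomial interval 7.26 to 10.2), 0.226% in spinal 2 (0.120 to 0.386), 21.5% in spinal 3 (20.5 to 22.5), 46.8% in eRT 1 (44.7 to 48.9), 7.74% in eRT 2 (6.62 to 8.98) and 72.9% in eRT 3 (71.5 to 74.3). Tumors eRT 3 and eRT 1 were highest, while eRT 2 lay within the MYC spinal range. The mean was 42.5% ± 32.8 in eRT and 10.1% ± 10.7 in MYC spinal (SD, n = 3 each), a difference of 32.4 percentage points that did not exceed the spread between tumors (exact two-sided permutation p = 0.3, where 3 against 3 allows no p below 0.1). Among the cells with a UMI of *Ptprc*, the pan-leukocyte antigen CD45, the means were 48.7% and 13.5% (exact permutation p = 0.3). Shares of cells depend on dissociation and on the removal of dead cells by sorting as well as on the tissue, and their part in these shares was not tested.

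**Figure D1:**
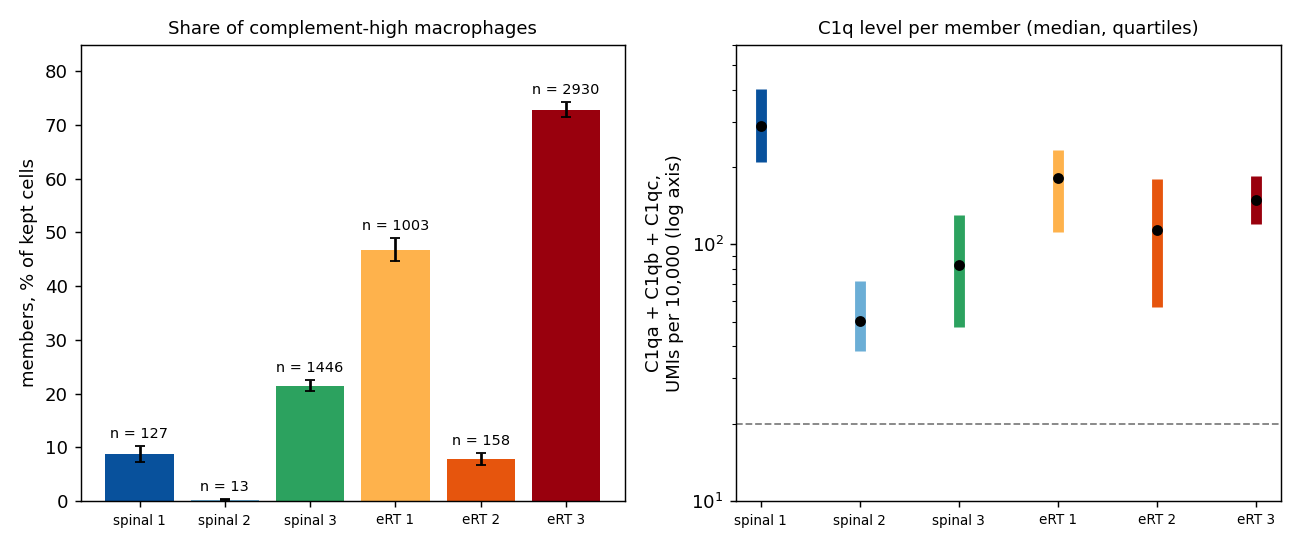
The left panel shows members as a percent of kept cells in each tumor with exact 95% binomial intervals, and the right panel the median and quartiles of C1q UMIs per 10,000 over the members on a log axis, with the gate's threshold of 20 dashed. The share ran from 0.226% in spinal 2 to 72.9% in eRT 3, and eRT 2 (7.74%) lay below spinal 1 (8.65%) and spinal 3 (21.5%).

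Within each tumor, the members held most of its C1q and a varying part of its other macrophage transcripts. Between 84.0% and 97.3% of the C1q UMIs of all kept cells were in members. For *Apoe* the members held 78.7% of the UMIs in spinal 1, 13.9% in spinal 2, 69.1% in spinal 3, 82.5% in eRT 1, 63.5% in eRT 2 and 96.4% in eRT 3. For *Csf1r* the shares were 75.6%, 2.11%, 23.2%, 42.5%, 30.5% and 95.7% in the same order of tumors. The C1q gate thus took in nearly all *Csf1r* UMIs of eRT 3, but under 50% of them in spinal 2, spinal 3, eRT 1 and eRT 2.

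Complement genes beyond C1q were sparse. Of the 15 listed components, 11 were in the tables, and besides the C1q genes only *Cfp* and *C4b* were above the 3-UMI limit in every tumor but spinal 2. *Cfp* encodes properdin, which stabilises the convertase of the alternative pathway, and was 121 CPM in spinal 1, 166 in spinal 2 (2 UMIs), 689 in spinal 3, 1059 in eRT 1, 373 in eRT 2 and 229 in eRT 3. It was highest in eRT 1 and spinal 3, 1 tumor of each group, and the groups overlapped. *C4b*, which C1s cleaves, was between 3.12 and 122 CPM, and *C3*, the central component, between 0 and 31.5 CPM. Transcripts of the proteases that partner C1q were scarce, with *C1ra* at 0 to 3.0 CPM and *C1s1* at 0 to 3.12 CPM.

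Receptors for complement fragments were expressed in the members of every tumor. *C5ar1*, the receptor for the anaphylatoxin C5a, was 439 CPM in spinal 1, 497 in spinal 2, 220 in spinal 3, 463 in eRT 1, 823 in eRT 2 and 361 in eRT 3. *C3ar1*, the receptor for C3a, was 582 CPM in spinal 1, 166 in spinal 2 (2 UMIs), 77.2 in spinal 3, 299 in eRT 1, 321 in eRT 2 and 121 in eRT 3. Both were lowest in spinal 3, and neither separated the groups. *Itgam*, the integrin chain of complement receptor 3, ranged from 78.1 CPM in eRT 1 to 331 in spinal 2.

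Antigen presentation genes were abundant. *Cd74*, the invariant chain that guides MHC class II molecules, was 22932 CPM in spinal 1, 12264 in spinal 2, 20627 in spinal 3, 16233 in eRT 1, 14414 in eRT 2 and 42665 in eRT 3. *H2-Ab1*, an MHC class II beta chain, was 5436 CPM in spinal 1, 3895 in spinal 2, 8047 in spinal 3, 5575 in eRT 1, 5090 in eRT 2 and 13062 in eRT 3. Both were highest in eRT 3, with the other eRT inside the MYC spinal range. *Lyz2*, which encodes lysozyme, followed the same order at its top, with 25435 CPM in eRT 3 against 8259 to 12782 in the other tumors.

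Most listed lysosomal and lipid genes were highest in the members of spinal 1, as were 1861 of the 8482 genes tested between the groups (21.9%). Of 18 lysosomal proteases and related genes, 14 were highest there (77.8%), and of 21 lipid genes 16 (76.2%), with *Ctsd* and *Ctsl* in both lists. *Ctsd*, a lysosomal aspartyl protease, was 10552 CPM in spinal 1 against 497 in spinal 2, 382 in spinal 3, 667 in eRT 1, 866 in eRT 2 and 398 in eRT 3. *Spp1*, which encodes osteopontin, was 10537 CPM in spinal 1 against 829, 816, 2523, 1417 and 744 in spinal 2, spinal 3, eRT 1, eRT 2 and eRT 3. Both genes thus stood high in a single MYC spinal tumor and not in the group. Others did not, such as *Lamp1*, a lysosomal membrane protein, at 141 CPM in spinal 1 against 127 to 994 elsewhere, and *Fabp5*, a fatty acid carrier, at 415 CPM in spinal 1 against 1141 in spinal 3.

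Of 10 genes that mark microglia, 9 were also highest in spinal 1. *Tmem119*, a microglial surface protein, was 686 CPM in spinal 1, 82.9 in spinal 2 (1 UMI), 89.9 in spinal 3, 103 in eRT 1, 82.6 in eRT 2 and 270 in eRT 3. *Cst7*, an inhibitor of lysosomal proteases that activated microglia induce, was 1526 CPM in spinal 1, 0 in spinal 2, 23.1 in spinal 3, 17.0 in eRT 1, 9.18 in eRT 2 and 5.43 in eRT 3. Summed over 10 microglia markers, the level was 8972 CPM in spinal 1 and between 382 and 1770 in the other tumors, extracranial ones included. By contrast, the sum over 13 border and tissue macrophage markers was 975 CPM in spinal 1, 1077 in spinal 2, 493 in spinal 3, 758 in eRT 1, 4270 in eRT 2 and 3398 in eRT 3. Both Sox2-cre tumors were highest, and eRT 1 lay inside the MYC spinal range.

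Chemokine transcripts were present in all tumors at unequal levels. *Ccl12*, a ligand of the monocyte receptor CCR2, was 2062 CPM in spinal 1, 2652 in spinal 2, 585 in spinal 3, 1663 in eRT 1, 2957 in eRT 2 and 1774 in eRT 3. *Cxcl2*, a neutrophil attractant, was 72.8 CPM in spinal 1, 1657 in spinal 2, 2175 in spinal 3, 567 in eRT 1, 9008 in eRT 2 and 4016 in eRT 3. The first was lowest in spinal 3 and the second in spinal 1, and both overlapped between groups. *Arg1*, the arginine-degrading enzyme of alternatively activated macrophages, was 240 CPM in spinal 1, 497 in spinal 2, 12.7 in spinal 3, 726 in eRT 1, 364 in eRT 2 and 5.86 in eRT 3. *Retnla*, which alternatively activated macrophages secrete, was 7955 CPM in spinal 2 (96 UMIs) and 80.1 CPM in spinal 1, and it was at 0 in the other tumors, which allows at most 9.18 CPM there.

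**Figure D2:**
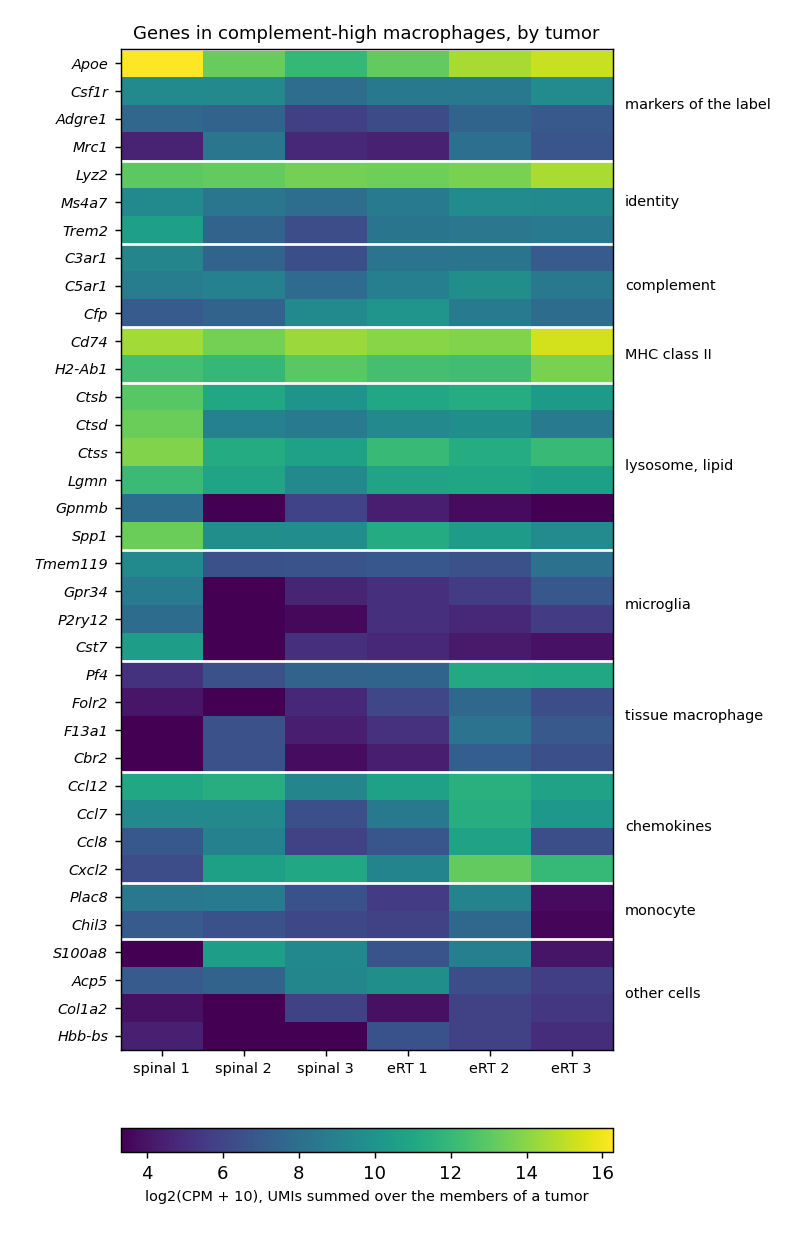
Colour gives log2(CPM + 10) of each gene (rows, grouped by role) in the members of each tumor (columns). *Ctsd*, *Spp1* and *Cst7* were highest in spinal 1, and *Pf4* was highest in eRT 2 and eRT 3.

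Whole profiles were compared as a description, by Pearson's r of log2(CPM + 10) over 8482 genes, which are not independent. The most alike pair was spinal 3 and eRT 1 (r = 0.947), a spinal and an extracranial tumor. The 3 eRT correlated with each other at 0.891 to 0.926, and spinal 1 with spinal 3 at 0.827. Pairs with spinal 2 were lowest, at 0.600 to 0.671, and its members also held the fewest UMIs.

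The members were next set against C1q-low phagocytes of the same tumors. These 3225 cells had under 20 C1q UMIs per 10,000, at least 2 detected genes of *Csf1r*, *Fcgr1*, *Ccr2*, *Ly6c2*, *Cd68* and *Ms4a6c*, no Cd3 or *Cd79a* UMI, fewer than 2 of the osteoclast genes and under 100 UMIs per 10,000 of *S100a8* plus *S100a9*. They numbered 52 in spinal 1, 1253 in spinal 2, 1065 in spinal 3, 323 in eRT 1, 416 in eRT 2 and 116 in eRT 3. The cells were parted by C1q, but the phagocyte gene, *Cd79a* and *S100a8* plus *S100a9* criteria were put on the C1q-low cells alone. The comparison thus describes which genes differed between both kinds, and the part of these unequal criteria was not tested. Genes of either gate are not read. By edgeR's quasi-likelihood test with tumor as a block and Benjamini-Hochberg adjustment, 328 of 6957 genes (4.71%) differed, 231 (3.32%) higher and 97 (1.39%) lower in members. Outside the gates, 227 of 6945 (3.27%) were higher and 96 (1.38%) lower.

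The chemokines *Ccl8* and *Ccl12* rose in the members. *Ccl8*, a CC chemokine that macrophages make, was 107 CPM in members against 0 in C1q-low cells of spinal 1, 497 against 0 in spinal 2, 49.4 against 7.20 in spinal 3, 101 against 3.31 in eRT 1, 1723 against 24.8 in eRT 2 and 75.6 against 4.02 in eRT 3. It was higher in 6 of 6 tumors (log2 fold change 4.96 ± 0.53, SE; adjusted p = 2.36e-05). *Ccl12* was higher in 6 of 6 tumors, with 2062 against 85.6 CPM in spinal 1 and 585 against 22.9 in spinal 3 (4.77 ± 0.50, adjusted p = 2.36e-05). Of 16 chemokines tested, 7 rose and none fell, with a median log2 fold change of 1.13 against -0.05 over all genes. The others that rose were *Ccl4*, *Ccl7*, *Cxcl14*, *Cxcl16* and *Pf4*, which encodes platelet factor 4.

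Genes of macrophage identity and tissue adaptation were higher in members too. *Tmem119* was 686 against 14.3 CPM in spinal 1, 82.9 (1 UMI) against 0.646 in spinal 2, 89.9 against 8.53 in spinal 3, 103 against 5.21 in eRT 1, 82.6 against 3.92 in eRT 2 and 270 against 36.2 in eRT 3 (4.06 ± 0.32, adjusted p = 4.33e-06). It rose in all 6 tumors, in the 3 extracranial ones as well. *Cx3cr1*, the fractalkine receptor of microglia and tissue macrophages, rose by 2.61 ± 0.24 (adjusted p = 7.57e-06), and *Adgre1* by 2.03 ± 0.21 (adjusted p = 2.03e-05). Outside the gates, 8 of 13 macrophage identity genes rose, 3 of 6 microglia markers and 5 of 6 border and tissue macrophage markers, and none of these lists held a gene that fell. The lists share genes, so these counts are not separate. *Pf4* and *Ms4a7* counted as identity and border genes, *Mrc1*, *Folr2* and *Stab1* as border and scavenger genes, and *Trem2* as an identity and lipid gene. *Igf1*, a trophic growth factor, was higher in 6 of 6 tumors (3.10 ± 0.51, adjusted p = 0.00169), from 2.80 CPM in the members of eRT 1 to 308 in those of spinal 1.

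*Apoe* led the lipid genes, with 78743 CPM in members against 11801 in C1q-low cells of spinal 1, 9695 against 170 in spinal 2, 3952 against 549 in spinal 3, 9241 against 1409 in eRT 1, 23970 against 3569 in eRT 2 and 37180 against 7639 in eRT 3 (3.04 ± 0.36, adjusted p = 8.58e-05). It was higher in every tumor, but only 4 of 19 lipid genes rose, the others being *Trem2*, a lipid-sensing receptor, *Cd63*, a tetraspanin of late endosomes, and *Abca1*, a cholesterol exporter. Of 18 lysosomal proteases and related genes, 7 rose, among them *Lgmn*, an asparaginyl protease (2.23 ± 0.35, adjusted p = 0.00115), and *Ctss*, which trims the invariant chain (1.47 ± 0.27, adjusted p = 0.00397). *Ctss* was also the single gene that rose among 12 of MHC class II presentation. Of these 12, 9 had an unadjusted p under 0.05 by edgeR's test, against 1056 of all 6957 genes. Their median log2 fold change was 1.08, against -0.05 over all genes. *Cd74* was higher in spinal 2, spinal 3, eRT 1, eRT 2 and eRT 3 but lower in spinal 1, at 22932 against 38283 CPM (1.49 ± 0.55, adjusted p = 0.169). Complement receptors and regulators gave 5 of 12 higher, among them *C3ar1*, *C5ar1*, *C5ar2* and *Itgam*, and scavenger genes 5 of 12 (*Mrc1*, *Msr1*, *Stab1*, *Folr2* and *Axl*).

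Monocyte genes went the other way. *Plac8*, an abundant transcript of young monocytes, was 349 CPM in members against 3295 in C1q-low cells of spinal 1, 414 against 3013 in spinal 2, 86.8 against 288 in spinal 3, 38.1 against 133 in eRT 1, 542 against 1367 in eRT 2 and 2.86 against 306 in eRT 3. It was lower in all 6 tumors (-2.76 ± 0.51, adjusted p = 0.0039). *Chil3*, a chitinase-like protein of monocytes and alternatively activated macrophages, was lower in 6 of 6 (-2.50 ± 0.33, adjusted p = 0.000232). Outside the gates, 6 of 10 monocyte genes fell and *Itgam* rose. Over 19 alternative settings, the fit without the block included, *Plac8* lost the call in 3 and *Chil3* in 1. Other genes that fell lost it too, *Thbs1* in 4, *Hp* in 5 and *Clec4e* in 10. *Plac8* lost it in cells of 1000 UMIs or more (-2.55, adjusted p = 0.0539 by edgeR's test). It also lost it under stricter gene and mitochondrial cutoffs (-2.545, adjusted p = 0.0529), and both settings left spinal 2 out. By edgeR's test, 0 of 21 interferon-stimulated genes passed (1 at an unadjusted p under 0.05, 0 by DESeq2), and 0 of 15 mitotic genes (0 and 0). Likewise 0 of 17 immediate early genes passed (8 at an unadjusted p under 0.05, 3 by DESeq2) and 0 of 15 of hypoxia and glycolysis (3 and 4).

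Some genes that fell mark other cells. *Klrd1*, a receptor of NK cells, was 2.43 CPM in members against 71.3 in C1q-low cells of spinal 1, and lower in 6 of 6 tumors (-3.66 ± 0.44, adjusted p = 9.5e-05). *Ctsk*, the bone matrix protease of osteoclasts, was 171 against 1262 CPM in spinal 3 and 258 against 1640 in eRT 1 (-3.51 ± 0.40, adjusted p = 5.71e-05). The summed level of 10 osteoclast markers in C1q-low cells was 4873 CPM in spinal 3, 5889 in eRT 1 and 1412 in eRT 3, against 83.3 to 290 in the others; that of 10 NK markers was 60.3 to 732 CPM. In members the osteoclast sum was 98.0 to 1265 CPM and the NK sum 9.58 to 249. When cells of both kinds with at least 2 markers of another lineage, osteoclast ones included, were left out, a setting added after the data were seen, 105 genes were higher and 93 lower of 4638 tested, 122 of them shared with the 328 called before. This left out 1289 members (22.7%), among them 65.5% of those in eRT 1 and 36.6% in spinal 3. Of 65 named genes that rose or fell, 48 were tested there and 33 kept the call, *Ccl8*, *Ccl12*, *Tmem119*, *Apoe*, *Plac8* and *Chil3* among them. The 15 that lost it included *Abca1*, *C3ar1*, *C5ar1*, *Ccl4*, *Ccl7*, *Ctsc*, *Cxcl16*, *Fcgr3*, *Itgam*, *Lamp1*, *Maf*, *Msr1*, *Pf4* and *Stab1*, with log2 fold changes from 0.30 for *Itgam* to 1.98 for *Ccl7*.

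**Figure D3:**
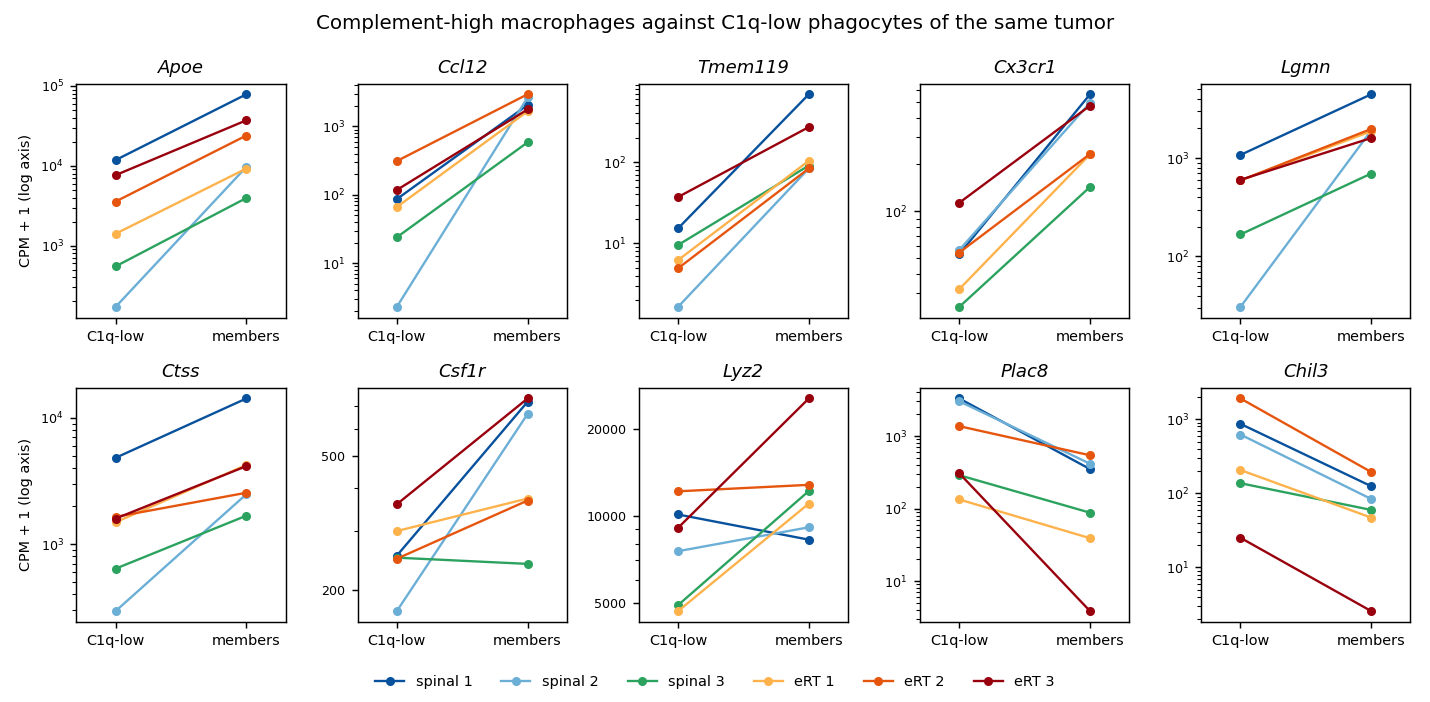
Each line joins the C1q-low phagocytes and the members of 1 tumor, as CPM + 1 on a log axis. *Apoe*, *Ccl12*, *Tmem119*, *Cx3cr1*, *Lgmn* and *Ctss* rose and *Plac8* and *Chil3* fell in all 6 tumors, while *Csf1r*, which the C1q-low gate used, and *Lyz2* went in unequal directions.

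The calls rested on cells of the same animal being compared. The fit without the block called only *C1qa*, *C1qb* and *C1qc*, with 458 genes at an unadjusted p under 0.05. Leaving out spinal 2, with its 13 members, gave 315 calls, of which 233 were among the 328. Leaving out spinal 3 gave 190 and leaving out eRT 1 gave 168. Of the genes named above as higher, *Cd63* and *Trem2* lost the call without spinal 1 (1.14 and 1.19 on the log2 scale), without spinal 2 (1.36 and 1.68) and without eRT 2 (1.15 and 1.22), with adjusted p = 0.0765 to 0.11 by edgeR's test. *Pf4* lost it without spinal 2 (1.82), spinal 3 (1.79) or eRT 3 (1.59), and *Cxcl16* without spinal 2 (1.11), eRT 1 (0.97) or spinal 3. Without eRT 1 or spinal 3, *Abca1*, *C3ar1*, *Itgam* and *Msr1* lost it too, at 0.77 to 1.33, and *Itgam* (0.76) and *Msr1* (0.79) also without eRT 3. A difference between eRT and MYC spinal in the step from C1q-low cells to members was not called for any gene by the interaction term of edgeR (0 of 6957, 0%; 70 genes or 1.01% at an unadjusted p under 0.05) or by DESeq2.

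Within the members, gene levels also followed the C1q level. Each tumor but spinal 2 was parted into terciles by C1q per 10,000, with C1q UMIs taken out of the totals; since C1q orders the cells, this is a description. *Apoe* went from 59365 CPM in the lowest tercile to 101410 in the highest in spinal 1, from 1747 to 7207 in spinal 3, from 3721 to 18118 in eRT 1, from 8708 to 44963 in eRT 2 and from 28532 to 49074 in eRT 3. *Tmem119*, *Csf1r*, *Ctsd*, *Ctss*, *Trem2* and *Ccl12* were likewise higher at the top than at the bottom in 5 of 5 tumors. *Plac8* was lower in 5 of 5, from 1003 CPM to 0 in spinal 1 and from 1321 CPM to 0 in eRT 2. For *Apoe*, *Tmem119*, *Ctss*, *Trem2*, *Ccl12* and *Plac8*, the direction called against C1q-low cells was thus also seen among the members. *Ctsd* was not called there (1.22 ± 0.41, adjusted p = 0.117 by edgeR's test), and *Csf1r* was a gene of the C1q-low gate.

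Other genes and gene groups did not follow it evenly. *Spp1* and *Pf4* were higher at the top than at the bottom in 3 of 5 tumors. The summed neutrophil markers were higher there in 1 of 5, and in spinal 3 they went from 3075 to 494 CPM. Median depth went from 4997 to 3759.5 UMIs in eRT 1 and from 3081 to 3102.5 in spinal 1. The part of mixed cells in the gradient was not tested. MHC class II genes (*H2-Aa*, *H2-Ab1* and *H2-Eb1* summed) went from 20559 to 13764 and 1265 CPM over the terciles of spinal 1, and went from 4195 to 19988 and 20844 CPM in eRT 1. In spinal 3 they went from 14490 to 26232 CPM, in eRT 2 from 13656 to 14721 and in eRT 3 from 31133 to 25301. The members richest in C1q were therefore the poorest in MHC class II transcripts in spinal 1 and among the richest in eRT 1 and spinal 3. The summed level of the mitotic genes was lower in the highest tercile than in the lowest in spinal 1, spinal 3, eRT 1 and eRT 3, for example 462 against 1122 CPM in eRT 1, and higher in eRT 2, at 133 against 26.4 CPM.

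**Figure D4:**
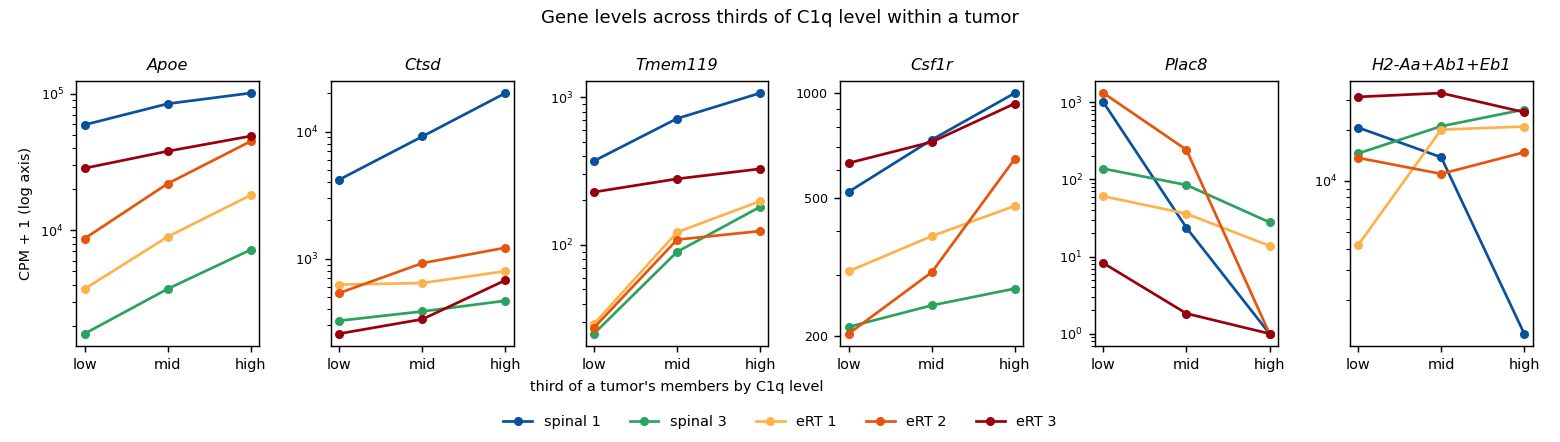
CPM + 1 on a log axis in the members of each tumor with the lowest, middle and highest C1q level, for 5 genes and the summed MHC class II genes. *Apoe* and *Csf1r* were higher and *Plac8* lower at the top than at the bottom in all 5 tumors, while MHC class II went from 20559 to 1265 CPM in spinal 1 and from 4195 to 20844 CPM in eRT 1.

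Proliferation was measured after each member was thinned to 1000 UMIs, which left out 6 of the 13 members in spinal 2, 22 in eRT 2, 19 in eRT 3 and 4 in spinal 1. Cells with UMIs of at least 2 of 16 mitotic genes then made up 3.25% of members in spinal 1 (6.30% before thinning), 13.2% in spinal 3 (25.5%), 13.4% in eRT 1 (27.5%), 1.47% in eRT 2 (1.27%) and 7.63% in eRT 3 (12.4%). In spinal 2, 0 of 7 thinned members held them, which is too few cells to bound the share usefully (exact 95% interval 0 to 41.0%). T cells of the same tumors, thinned alike, gave 3.47%, 26.8%, 25%, 7.85% and 11.1% in spinal 1, spinal 3, eRT 1, eRT 2 and eRT 3. The order of the tumors was thus nearly the same in members and T cells, with spinal 3 and eRT 1 highest in both, and the part of free RNA was not tested.

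Between the groups, no gene of the members passed. Of 8482 genes tested by edgeR, 0 (0%) were called at an adjusted p under 0.05 and 178 (2.1%) had an unadjusted p under 0.05. DESeq2 called only *Pf4*, with 89 genes at an unadjusted p under 0.05. By CPM alone, the groups did not overlap for 268 genes that were higher (3.16%) and 107 that were lower in eRT (1.26%). The genes below are those with the smallest unadjusted p among the non-overlapping ones and are a description.

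*Pf4* was 26.7 CPM in spinal 1, 82.9 in spinal 2 (1 UMI), 162 in spinal 3, 173 in eRT 1, 2231 in eRT 2 and 2084 in eRT 3. The groups did not overlap, but eRT 1 and spinal 3 were close and both Sox2-cre tumors stood over 10 times higher (log2 fold change 4.23 ± 0.99, edgeR adjusted p = 0.69). After thinning to 1000 UMIs, *Pf4* was seen in 2.44% of members in spinal 1, 7.81% in spinal 3, 8.47% in eRT 1, 52.2% in eRT 2 and 75.4% in eRT 3 (before thinning 8.66%, 13.8%, 20.2%, 58.2% and 88.8%). In T cells, which should lack it, the thinned shares were 0%, 4.03%, 0%, 1.71% and 14.4%, at median depths of 1955, 2427, 2290, 1587 and 1343 UMIs before thinning against 3126, 2278, 4249, 1878 and 2232 in members. The shares in members thus exceeded those in T cells in all 5 tumors, where 0 of 864 T cells in spinal 1 allow a share of up to 0.347% and 0 of 40 in eRT 1 up to 7.5%.

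*Folr2*, the folate receptor beta of tissue macrophages, was 7.28 CPM in spinal 1, 0 in spinal 2, 17.1 in spinal 3, 57.4 in eRT 1, 193 in eRT 2 and 73.5 in eRT 3 (3.09 ± 0.72, adjusted p = 0.69). The groups did not overlap, although the limit for 0 counts in spinal 2 is 249 CPM, above every eRT value. *Sash1*, which encodes a signalling scaffold, was 9.70 CPM in spinal 1, 0 in spinal 2, 12.7 in spinal 3, 40.6 in eRT 1, 76.5 in eRT 2 and 73.6 in eRT 3 (2.55 ± 0.61, adjusted p = 0.69). *Hbb-bs*, an adult beta globin, was 12.1 CPM in spinal 1, 0 in spinal 2 and spinal 3, 84.7 in eRT 1, 45.9 in eRT 2 and 22.0 in eRT 3. In the kept cells of eRT 2 outside both gates *Hbb-bs* was 3866 CPM, and the part of red cell RNA in the values of members was not tested.

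Lower in eRT was *Sparc*, a matrix-binding glycoprotein that microglia and mesenchymal cells express, at 1070 CPM in spinal 1, 166 in spinal 2 (2 UMIs), 90.2 in spinal 3, 3.66 in eRT 1, 67.3 in eRT 2 and 40.8 in eRT 3 (-3.56 ± 1.07, adjusted p = 1). The groups lay close between eRT 2 and spinal 3 and far apart between eRT 1 and spinal 1. The summed level of 14 mesenchymal markers, *Sparc* among them, was 1128, 166, 191, 33.5, 628 and 183 CPM in the same order of tumors. *Bcl2a1c*, of a family of survival genes, was 109 CPM in spinal 1, 82.9 in spinal 2 (1 UMI), 23.6 in spinal 3, 5.81 in eRT 1, 15.3 in eRT 2 and 22.2 in eRT 3. *H2-Q4*, *Rpl23a* and *Rpl9* were also below and *Rps26-ps1* above, but these genes and *Bcl2a1c* have near-identical copies among which reads can be split, so their values are uncertain.

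**Figure D5:**
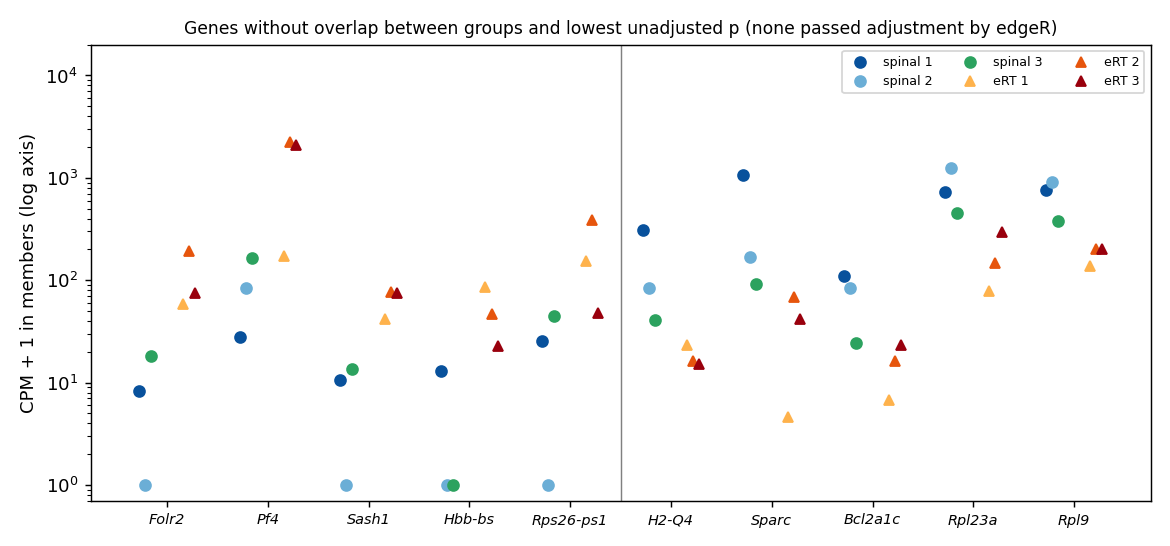
CPM + 1 (log axis) in the members of each tumor for 5 genes that lay higher (left) and 5 that lay lower (right) in all eRT than in all MYC spinal tumors; none passed adjustment by edgeR, and DESeq2 called *Pf4*. *Pf4* reached 2231 CPM in eRT 2 and 2084 in eRT 3 against at most 173 in the other tumors.

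By edgeR's test no list held a gene called between the groups, and DESeq2 called only *Pf4*. The median log2 difference (eRT minus MYC spinal) was 2.18 over 9 border and tissue macrophage markers, with 2 of the 9 higher without overlap and 5 at an unadjusted p under 0.05. It was 1.16 over 18 chemokines, with 8 at an unadjusted p under 0.05, against 0.08 and 2.1% over all genes. Of 21 chemokines with a UMI, 16 were highest in eRT 2, as were 9 of 13 border and tissue macrophage markers and 1286 of all 8482 genes. *Ccl8* was 1723 CPM in eRT 2, but 101 in eRT 1 and 75.6 in eRT 3, inside the MYC spinal range of 49.4 to 497. The median was -1.31 over 8 microglia markers, -0.78 over 22 interferon-stimulated genes and -0.62 over 20 lipid genes, with 1, 1 and 6 genes at an unadjusted p under 0.05. Over 3 erythroid markers, the globin genes *Hba-a1*, *Hba-a2* and *Hbb-bs*, it was 4.43, with all 3 at an unadjusted p under 0.05. The summed erythroid markers were 34.0, 0 and 19.5 CPM in the members of spinal 1, spinal 2 and spinal 3 and 139, 230 and 28.3 CPM in those of eRT 1, eRT 2 and eRT 3, against 302, 13.2, 323, 559, 7127 and 18.0 CPM in the kept cells outside both gates. *Cst7* had a small p (-5.72 ± 1.32, unadjusted p = 0.000481 by edgeR's test), but its groups overlapped at 0 in spinal 2 and its level rested on 1526 CPM in spinal 1.

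Tumor spinal 1 weighed heavily on the comparison. Without it, edgeR called 9 of 9944 genes (0.0905%) higher and 19 (0.191%) lower in eRT. Some of those called higher, named after their values were seen, stood above every eRT in spinal 1 itself. Among them were *Cxcl13* (1041 CPM in spinal 1), *Ptgs1* (269) and *Bhlhe41* (119). The genes with the smallest p, also named after their values were seen, were *Camp* and *Ngp*, granule proteins of neutrophil precursors, and *Dmkn*, which encodes dermokine. *Camp* was 663 CPM in spinal 2 (8 UMIs) and 97.4 in spinal 3 against at most 0.430 in eRT. *Dmkn* held 0 UMIs in spinal 2 and 643 in spinal 3, so its call rested on spinal 3. The summed level of 12 neutrophil markers in the members was 99.5 CPM in spinal 1, 4226 in spinal 2, 1807 in spinal 3, 279 in eRT 1, 1240 in eRT 2 and 39.9 in eRT 3. In the kept cells outside both gates it was 252, 153540, 8048, 3242, 12053 and 749 CPM. Tumors with more neutrophil transcripts outside the gates mostly had more in the members, and the part of free RNA or of cell pairs in these calls was not tested.

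Osteoclast and neutrophil genes were common in the members of some tumors, and markers of other lineages were sparser. At least 2 of 10 osteoclast genes were found in 655 members of eRT 1 (65.3%), 495 of spinal 3 (34.2%) and 0% to 3.15% of those in the other tumors. At least 2 of 12 neutrophil genes were found in 11 of the 13 members of spinal 2 (84.6%), in 14.9% to 25.9% of those in spinal 3, eRT 1 and eRT 2, and in 0% and 0.137% in spinal 1 and eRT 3. The part of free RNA, of cell pairs or of such genes in macrophages was not tested. At least 2 markers of any of the B-lineage, NK, endothelial, mesenchymal or epithelial lists were found in 146 members (2.57%). Over 9 T cell markers in the tables, 3 of which the gate excluded, the sum was 0 to 21.8 CPM, and *Cd8b1* was at or below 1.04 CPM in every tumor. Epithelial markers summed to 0 to 24.2 CPM, endothelial ones to 0 to 91.8, B-lineage ones to 8.15 to 166, mast cell and basophil ones to 0 to 15.1, erythroid ones to 0 to 230 and dendritic cell ones to 232 to 1092 CPM. Osteoclast markers were highest in the members of spinal 3 (1041 CPM) and eRT 1 (1265 CPM), where cells outside both gates held 11473 and 23029 CPM.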

How the data were processed

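Single cells of 6 tumors were captured with 10x Genomics 3′ chemistry. Per the labels and the study's methods, the authors dissociated tumors with Accutase, sorted live cells, sequenced on a NextSeq 500, ran Cell Ranger 2.0.2 with the mm10 reference 1.2.0 and loaded genes seen in at least 3 cells and cells with at least 50 genes. The deposited tables hold raw UMI counts per gene and cell, not normalized. No column of another sample was left out (0). Cell names carry a tumor prefix and a running number, so shared barcodes could not be counted.

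Cells were filtered as stated above (518 removed), and UMIs were summed per tumor over the members and over the C1q-low phagocytes. Sums were tested with edgeR 4.0.16 (TMM, filterByExpr, quasi-likelihood test, Benjamini-Hochberg threshold 0.05) in R 4.3.3. Both kinds of cell came from the same animal, so tumor was a block. TMM factors were 0.798 to 0.967 and 1.99 in spinal 2. Shares were tested with exact permutation tests over tumors (SciPy 1.17.1). Scripts were tested on simulated data. Scrublet in scanpy 1.11.5 marked 0 to 10 cells per tumor, which is too few to have worked, and no doublets were removed.

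Named genes were the gate genes and label markers; of each of 31 gene lists, the called genes and the 4 with the highest mean CPM; and per comparison the 10 called genes of each direction with the largest change in every tumor (mean log2 CPM at least 5), or, with fewer than 5 called between groups, the 5 with the smallest p that did not overlap. Some listed genes are not reported here. Others are said to be chosen after seeing their values, and *C3*, *C4b*, *C1ra* and *C1s1* were named after theirs as components beyond the rule. The members and lists were chosen with earlier results of these data known. Alternatives changed the gate, the cell filters, doublets, normalization, tool, gene filter, covariates, block and tumors.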

Additional observations from a re-analysis of the deposited data

How the results depend on the processing

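The difference in share was 17.2 to 49.7 percentage points when single tumors were left out and positive in all settings run; with so few tumors no setting could have passed 0.05. Between groups, edgeR's 0 calls became 17 with every gene that had a UMI, 18 with the mouse model (Cre line) and 5 with sex as a covariate, 1 with DESeq2, and 0 to 28 without single tumors (28 without spinal 1, 13 without eRT 3, 6 without eRT 2). No paired analysis was possible because each tumor of a group is another animal and the numbers were given in accession order. Against C1q-low cells, where the tumor pairs the cells, the replicate block gave 328 calls and its absence 3; every gene with a UMI gave 979, and leaving out cells with markers of another lineage from both kinds gave 198. Without single tumors the count was 168 to 473. The 65 named genes of this comparison kept their direction in every setting that tested them, but all lost the call without the block; over the 18 other settings 33 kept it wherever tested, 32 lost it at least once and 13 in 5 or more, *Cxcl16* most often (11). The interaction gave 1 call with a C1q threshold of 10 per 10,000, 19 with every gene, and 0 to 14 without single tumors. The cause of these moves was not tested. With thresholds of 40 per 10,000, all 3 C1q genes, 500 genes or 1000 UMIs, spinal 2 had too few members and was not fitted. Depth limited spinal 2 most.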

Other observations

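Smaller gene groups moved in part between the members and the C1q-low phagocytes of the same tumors (edgeR's quasi-likelihood test with tumor as a block, adjusted p under 0.05). Over all genes outside the gates, 3.27% were higher and 1.38% lower in members. Of 8 iron and heme genes, *Blvrb*, a biliverdin reductase, rose by 1.01 ± 0.24 and *Tfrc*, the transferrin receptor, changed by -1.88 ± 0.30 on the log2 scale. Of 13 cytokine and growth factor genes, *Igf1* and *Grn*, which encodes progranulin, rose and *Hbegf*, an EGF family ligand, fell. Of 7 arginine and alternative activation genes, *Ptgs1*, a cyclooxygenase, rose by 2.31 ± 0.45 and *Chil3* fell. Of 5 Fc receptor genes outside the gates, *Fcgr3* rose by 0.99 ± 0.24. Without eRT 1, *Blvrb* (1.04) and *Fcgr3* (0.93) lost the call, as they did without eRT 3 (0.91 each), and *Fcgr3* also without spinal 1 (0.95) or spinal 3 (0.91).

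Among 11 matrix genes, *Mmp9*, *Timp1* and *Thbs1* fell and none rose, but *Timp1* lost the call without spinal 2 (-1.56), spinal 3 (-1.45) or eRT 3 (-0.97) and *Thbs1* without eRT 1 (-1.03). *Mmp9* was 142 CPM in members against 714 in C1q-low cells of spinal 3 and 66.7 against 407 in eRT 1, the tumors whose C1q-low cells also had the highest summed osteoclast markers. Of the marker lists of other cells, *Gzma* and *Nkg7* of 2 NK genes tested, *Ctsk*, *Mmp9* and *Nfatc1* of 4 osteoclast genes, *Col1a2* of 4 mesenchymal genes and *Car2* of 2 erythroid genes fell, and their part in the other differences was not tested.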
